A study of Mus musculus with 2 samples.

Results

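Divergent promoters are stretches of DNA from which a pair of genes on opposite strands is transcribed in opposite directions, with their start sites close together. The regions described here are the EP300 peaks at such promoters in fetal mouse liver that lack a GATA sequence. A peak was taken when its summit lay within 1 kb of transcription start sites (TSSs) of 2 different protein-coding genes on opposite strands in the GENCODE vM21 annotation. It also had no GATA match, that is A or T, then GATA, then A or G on either strand, within 100 bp of the summit. Of the 17043 reproducible peaks on the chromosomes, 397 met the rule (2.33%, 95% Wilson interval 2.11 to 2.57), which was 10.1% of the 3923 peaks at coding promoters. They stood at 325 distinct gene pairs with 650 genes.

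EP300 is a histone acetyltransferase that has no DNA sequence preference of its own and is brought to enhancers and promoters by transcription factors. Divergent promoters are common in mammals, often coincide with CpG islands and typically serve housekeeping genes of mitochondria, RNA processing, protein folding and DNA repair. GATA1 binds the GATA sequence and directs red blood cell formation, which takes place in the fetal liver.

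The samples were 2 EP300 ChIP-seq libraries of fetal liver from mice of strain B6NCrl, taken at 14.5 days of embryonic age and of mixed sex, without genetic alteration or treatment named in the labels. The tissue was a pulverized pool of livers from several dissections, so it mixed erythroid, hepatocyte and other cells, and binding in a few cells cannot be told apart from weaker binding in many. The labels number them as biological replicates 1 and 2 yet give both the same biosample and donor, so the spread between them may be technical. There was 1 group and no contrast between conditions, so every comparison below is between kinds of peaks or promoters within the same libraries, with intervals that cover counting error only and no p-values. Peaks are not replicates, and several peaks can share a promoter.

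The main list was the authors' optimal list of 17055 peaks, of which 12 on unplaced contigs were left out. Its peak signal is the value that the authors' processing gave each peak; it serves here for ranks and descriptions inside a single list. Depth is unknown, since no file gives the number of reads. As a check of the tissue, 6 of 6 erythroid marker genes had an optimal peak within 20 kb, as did 4 of 6 hepatocyte markers, 1 of 6 markers of other liver cells (Kdr) and 0 of 2 genes of neurons.

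The sequences between the paired start sites show what these regions look like. The 10 below were picked after the values were seen, to show the motifs that the results turn on in pairs whose gap is free of exons at least in the stretch shown. All are on the plus strand of mm10 (RefSeq GRCm38), from next to the start of the minus-strand gene, named first, toward the start of the plus-strand gene. Capitals mark matches, on either strand, to the CGCG palindrome CTCGCGAG, the CCAAT box (CCAAT followed by C or G and then by A or G), the ETS motif CCGGAAG, the GC box GGGGCGGG, the E2F motif GGCGGGAA and the CRE core TGACGT. The stretches lie at chr3:152210303-152210421, chr11:90638085-90638172, chr5:140321553-140321621, chr11:70647059-70647234, chr6:30509784-30509848, chr4:41464888-41465150, chr13:23574197-23574380, chr2:3512815-3513029, chr11:86683837-86683984 and chr4:116708407-116708508, in the order in which they are listed.
Dnajb4 / Fubp1: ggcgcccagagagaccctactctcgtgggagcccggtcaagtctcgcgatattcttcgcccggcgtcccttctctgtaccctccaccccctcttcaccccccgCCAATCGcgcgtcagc
Stxbp4 / Cox11: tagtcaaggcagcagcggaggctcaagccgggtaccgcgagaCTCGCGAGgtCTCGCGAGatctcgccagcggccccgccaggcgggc
Mad1l1 / Nudt1: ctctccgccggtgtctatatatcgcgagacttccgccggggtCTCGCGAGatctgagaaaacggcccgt
Slc25a11 / Rnf167: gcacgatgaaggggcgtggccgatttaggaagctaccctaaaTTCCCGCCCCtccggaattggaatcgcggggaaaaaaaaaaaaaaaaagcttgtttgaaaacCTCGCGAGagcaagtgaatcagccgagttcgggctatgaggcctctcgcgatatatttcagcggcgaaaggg
Tmem209 / Ssmem1: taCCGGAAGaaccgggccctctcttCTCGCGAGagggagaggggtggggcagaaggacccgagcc
Kif24 / Nudt2: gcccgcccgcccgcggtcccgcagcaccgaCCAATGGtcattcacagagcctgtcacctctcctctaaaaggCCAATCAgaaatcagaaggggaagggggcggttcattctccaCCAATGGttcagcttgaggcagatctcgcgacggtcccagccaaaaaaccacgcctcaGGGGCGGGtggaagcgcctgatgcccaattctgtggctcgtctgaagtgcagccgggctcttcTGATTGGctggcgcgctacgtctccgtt
Hist1h2bf / Hist1h2ad: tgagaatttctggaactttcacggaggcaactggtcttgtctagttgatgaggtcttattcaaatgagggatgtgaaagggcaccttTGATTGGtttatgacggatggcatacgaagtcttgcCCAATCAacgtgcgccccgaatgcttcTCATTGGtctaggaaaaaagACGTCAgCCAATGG
Hspa14 / Cdnf: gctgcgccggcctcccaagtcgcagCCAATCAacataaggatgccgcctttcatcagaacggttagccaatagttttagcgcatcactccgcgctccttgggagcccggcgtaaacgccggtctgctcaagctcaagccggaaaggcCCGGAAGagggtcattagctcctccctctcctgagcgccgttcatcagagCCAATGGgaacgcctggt
Vmp1 / Ptrh2: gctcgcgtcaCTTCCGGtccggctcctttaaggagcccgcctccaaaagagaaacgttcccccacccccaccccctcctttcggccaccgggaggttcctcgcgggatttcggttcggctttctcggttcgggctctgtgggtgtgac
Mmachc / Ccdc163: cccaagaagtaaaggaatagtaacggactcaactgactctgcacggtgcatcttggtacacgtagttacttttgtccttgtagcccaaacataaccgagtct

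Stxbp4 / Cox11 holds 2 copies of the CGCG palindrome within 89 bp between the starts, and Mad1l1 / Nudt1, Slc25a11 / Rnf167 and Tmem209 / Ssmem1 hold 1 each in the stretch shown. Kif24 / Nudt2 and the histone pair Hist1h2bf / Hist1h2ad hold 4 CCAAT boxes each, the histone pair with a CRE core beside the last of them. Hspa14 / Cdnf combines CCAAT boxes with an ETS motif, Vmp1 / Ptrh2 has an ETS motif near the start of Vmp1, and Mmachc / Ccdc163 has none of these motifs. Dnajb4 / Fubp1 has a CCAAT box and, in lower case, the letters TCTCGCG, which share most of the palindrome.

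Most of the regions were divergent in the strict sense. In 334 of 397 (84.1%, 80.2 to 87.4) the nearest opposite-strand starts stood head to head, with the minus-strand start on the left, and in the other 63 (15.9%) the starts overlapped, so that both genes were transcribed across the shared stretch. These shares count the starts of all annotated transcripts. With only the 5′ end of each gene the head-to-head share was lower, as given in the last section. Head-to-head starts were a median of 184 bp apart (95% order-statistic interval 162 to 207), and 244 of 334 (73.1%) were at most 300 bp apart. The shortest distance was 3 bp, at Dhrs1 / Nop9, whose peak had a signal of 10.3. The longest was 1132 bp, between the histone genes Hist1h3c and Hist1h2bb, with a signal of 15.0, and the longest overlap was 922 bp, at Bzw2 / Ankmy2. Each of these 3 extreme pairs had a weak peak, without a replicate 1 summit within 100 bp. At 17 peaks (4.28%), more than 2 coding genes started within 1 kb.

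EP300 summits sat close to a start. The nearer start was a median of 54.0 bp away (46.0 to 61.0), against 107 bp (99.0 to 114) for the 2024 one-direction peaks, meaning peaks without a GATA match at coding promoters where no second coding gene starts on the opposite strand within 1 kb of the summit. A start lay within 100 bp of the summit in 71.0% of divergent peaks and 48.2% of one-direction peaks, a difference of 22.8 percentage points (Newcombe interval 17.7 to 27.6). A divergent peak has starts of at least 2 genes nearby by the rule, and the part this plays in the difference was not tested. The summit fell between the starts in 207 of 397 peaks (52.1%, 47.2 to 57.0). Among the 253 head-to-head peaks with starts at least 100 bp apart, 61.7% had the summit between the starts and 44.7% within 50 bp of a start, and 27.7% (22.5 to 33.5) had it in the middle 50% of the gap. The last share is 70 of the 253 peaks. These 70 are part of the 156 with the summit between the starts, so the values do not show a preference for the ends of the gap over its middle.

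**Figure D1:**
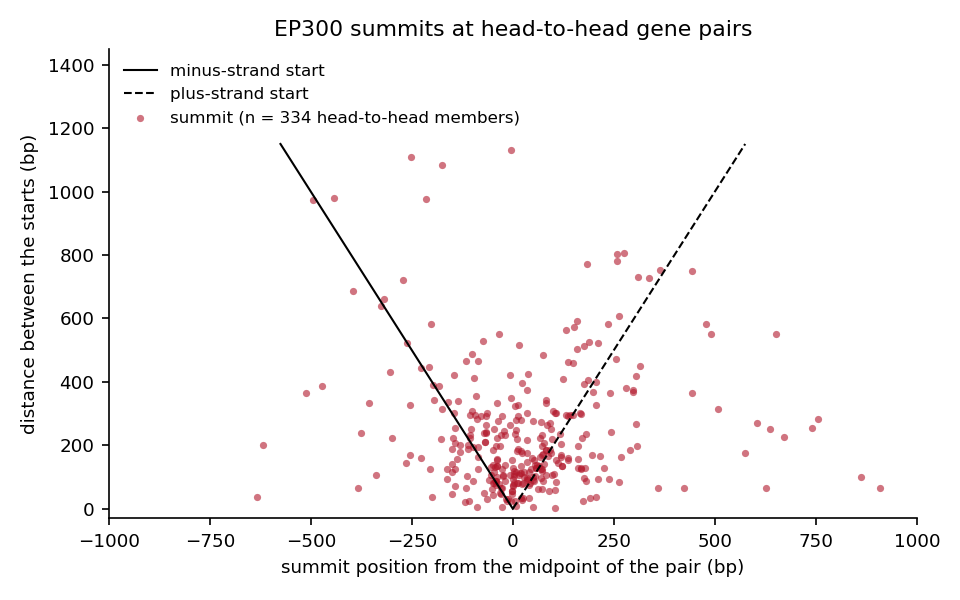
Position of the EP300 summit relative to the midpoint of the pair (horizontal axis, bp) against the distance between the starts (vertical axis, bp) for the 334 head-to-head peaks, 1 point each; the solid line is the minus-strand start and the dashed line the plus-strand start. Of these summits, 54.2% lie between the lines; where the starts are at least 100 bp apart, 44.7% lie within 50 bp of a line.

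Stronger peaks lay between the starts more often. The median signal was 32.9 (27.2 to 36.5) for summits between the starts and 24.1 (22.5 to 25.9) for the others. Among the 80 strongest peaks 68.8% of summits were between the starts, and among the 80 weakest 40.0%. Several promoters carried more than 1 called peak: 259 pairs had 1, 61 had 2, 4 had 3 and Zfp91 / Lpxn had 4, with signals from 7.90 to 71.1. Such peaks share a promoter and are not independent. At Rps18 / Vps52, the pair of a ribosomal protein and a vesicle tethering subunit, the 3 peaks had signals of 22.5, 18.1 and 17.0.

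As a class these peaks were weak for the list. Their median signal was 27.1 (25.3 to 29.7), with a range of 5.22 to 293, against 26.4 (25.5 to 27.2) for one-direction peaks without a GATA match. The ratio of the medians was 1.03 (0.929 to 1.16). Divergent promoter peaks with a GATA match had a median of 32.9, one-direction peaks with one 45.0, peaks with no coding start within 1 kb 41.8, and all optimal peaks 38.5. None of the 397 was among the 100 strongest optimal peaks, 3 were among the 1000 strongest and 45 among the 5000 strongest. Among peaks without a GATA match, divergent and one-direction promoters had medians that differed by less than their intervals.

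**Figure D2:**
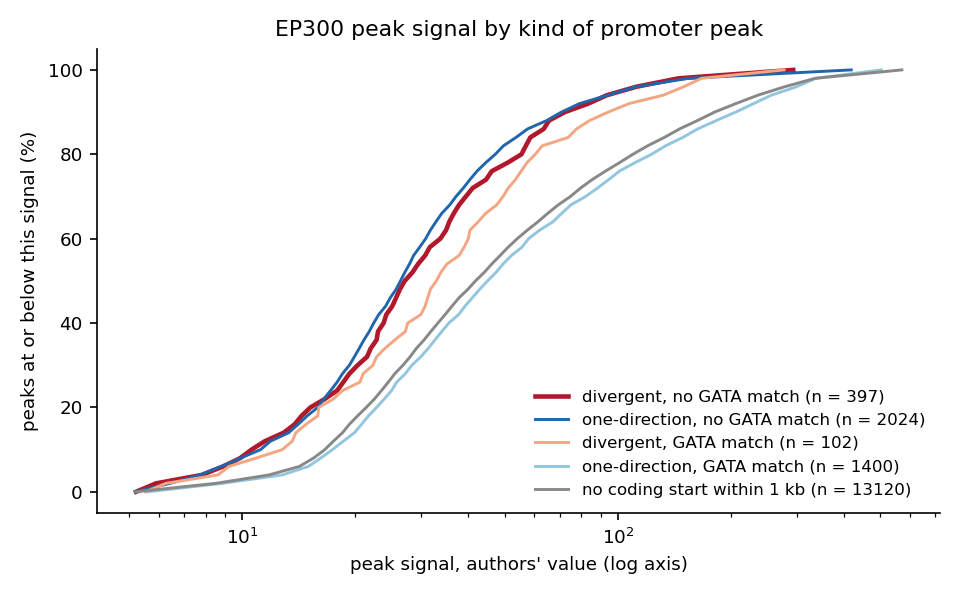
Share of peaks (vertical axis, %) at or below each peak signal (horizontal axis, the authors' value, log scale) for 5 kinds of optimal peaks. The curve of the 397 divergent peaks without a GATA match runs beside that of the 2024 one-direction peaks without one, medians 27.1 and 26.4, and left of the one-direction peaks with a GATA match, median 45.0.

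GATA matches were less frequent at divergent promoters to begin with. A match lay within 100 bp of the summit in 102 of 499 divergent promoter peaks (20.4%) and in 1400 of 3424 one-direction promoter peaks (40.9%), a difference of -20.4 points (-24.1 to -16.3). In all optimal peaks the share was 74.7%. In the genome, without reference to EP300, a match lay within 100 bp of the midpoint of 9.74% of 1232 head-to-head coding pairs with starts at most 1 kb apart, and of the 5′ end of 16.7% of 18745 one-direction genes. Few peaks lay right at the limit of 100 bp: 3 divergent peaks with a match had it reach 91 to 100 bp from the summit, and 3 without had one at 101 to 110 bp. Farther out, 69 of the 397 peaks had a match that reached 101 to 250 bp from the summit. Only 58 had no match within 1 kb, so the lack of GATA holds for the 100 bp around the summit and not for the wider promoter. A GATA-bearing optimal summit elsewhere within 20 kb was found for 40.8% of the divergent peaks and 55.0% of the one-direction peaks, a difference of -14.2 points (-19.4 to -8.82). The share over all optimal peaks was 63.9%.

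The share of peaks that recurred in both libraries was close to that at one-direction promoters and below that of all peaks. A summit of both libraries lay within 100 bp of 248 of 397 divergent peaks (62.5%, 57.6 to 67.1), against 62.5% of one-direction peaks, a difference of 0.0179 points (-5.27 to 5.11). The background over all 17043 optimal peaks was 84.3%. Replicate 1 alone had a summit at 74 divergent peaks, replicate 2 alone at 62, and neither at 13. The median signal was 36.4 in the 248 peaks found in both and 8.99 in the 13 found in neither. The conservative list, a second list of reproducible peaks from the authors, held 64.7% of the divergent peaks and 64.0% of the one-direction peaks, against 78.4% of all optimal peaks. Across the 248 peaks found in both, the signals of the libraries had a Spearman's rho of 0.655, given as a description over peaks chosen for recurrence. The 80 strongest were found in both libraries in 93.8% of cases and the 80 weakest in 13.8%.

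The 3 strongest peaks missing from a library show that the gap was not confined to the faintest. Sharpin / Maf1, where Maf1 encodes a repressor of RNA polymerase III, had an optimal signal of 66.0 and ranked 4822 in replicate 1. Erh / Slc39a9, at 65.9, ranked 3942 in replicate 1. Neither had a replicate 2 summit within 100 bp. Ruvbl2 / Gys1, with a signal of 61.5, ranked 3799 in replicate 2 and had no replicate 1 summit. In the first 2 pairs a second, weaker divergent peak of the same pair did have a replicate 2 summit, with signals of 24.3 at Sharpin / Maf1 and 30.8 at Erh / Slc39a9. The 3 weakest peaks were at Bysl / Med20, B3galt6 / Sdf4 and Tmtc3 / Cep290, with signals of 5.32, 5.26 and 5.22.

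The strongest peak, at chr3:105959215-105959464 between Atp5f1, a subunit of mitochondrial ATP synthase, and Wdr77, a partner of the arginine methyltransferase PRMT5, had an optimal signal of 293, with 147 in replicate 1 and 151 in replicate 2. The second strongest lay between Dnajb4, a co-chaperone of HSP70, and Fubp1, a DNA- and RNA-binding protein, with 228 in the optimal list, 115 in replicate 1 and 114 in replicate 2. The third, between Styxl1 and the malate dehydrogenase gene Mdh2, had 228 in the optimal list, 94.4 in replicate 1 and 131 in replicate 2. These 3 peaks were high in both libraries, and the libraries' own values are not on the scale of the optimal list.

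Others of the 12 strongest were at Hnrnpa2b1 / Cbx3, an RNA-binding protein and a heterochromatin protein, with signals of 103 in replicate 1 and 71.3 in replicate 2. Prepl / Camkmt, a peptidase-like protein and a calmodulin methyltransferase, had 95.7 in replicate 1 and 77.5 in replicate 2. Stxbp4 / Cox11, where Cox11 is needed for cytochrome c oxidase assembly, had 82.0 and 67.2. These 3 pairs had the higher value in replicate 1. Tepsin / Ndufaf8, with an assembly factor of respiratory complex I, had 71.0 in replicate 1 and 79.2 in replicate 2. Cyb5d1 / Naa38 had 77.7 and 66.8, and Mad1l1 / Nudt1, a spindle checkpoint protein and an oxidized nucleotide hydrolase, 72.8 and 64.8. Mthfd2 / Mob1a, with Mthfd2 of folate metabolism in mitochondria, had 63.9 in replicate 1 and 75.0 in replicate 2, and Pdap1 / Bud31, with a splicing-associated protein, 55.5 and 84.0. The 12 strongest were all found in both libraries, and in 10 the summit lay between the starts.

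The base composition was that of CpG islands. The 201 bp around the summit had a median GC content of 61.2% in both the divergent and the one-direction peaks, and a median ratio of observed to expected CpG of 0.872 (0.849 to 0.902) and 0.811 (0.798 to 0.824). A GC content of at least 50% with a CpG ratio of at least 0.6, a CpG-island-like composition, was found in 82.4% of divergent and 69.0% of one-direction peaks, a difference of 13.3 points (8.84 to 17.3). Of all optimal peaks 13.3% met it. Among promoter peaks with a GATA match, 52.0% of divergent and 15.8% of one-direction peaks did. The rule leaves out windows with a GATA match, and the part this plays in the composition was not tested.

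Of 20 motifs searched within 100 bp of the summit, on either strand, the CCAAT box, ETS and the GC box were found most often. The CCAAT box, bound by NF-Y, was in 19.9% of the divergent peaks and 16.5% of the one-direction peaks. ETS was in 17.1% and 13.8%, the GC box of SP and KLF factors in 15.6% and 14.6%, and E2F in 6.30% and 4.20%, in the same order. None of these 4 differences had an interval that excluded 0, but that of the CCAAT box did in the top peaks of each library alone, at 6.98 points (3.05 to 11.3) in replicate 1 and 6.65 points (2.43 to 11.3) in replicate 2. In the top peaks of replicate 1 the ETS difference was 5.76 points (2.07 to 9.89) and the E2F difference -0.247 points, with an interval that included 0, and in those of replicate 2 they were 2.85 points (-0.833 to 7.08) and 1.78 points (-0.273 to 4.57). The CRE core of CREB and ATF factors was in 11.1% of divergent and 7.56% of one-direction peaks, a difference of 3.52 points (0.535 to 7.15). That interval included 0 under 6 of 12 other settings, where the difference was 1.29 to 4.09 points over all 12. None of the motif intervals was adjusted for the comparison of 20 motifs. The core counts the full palindrome TGACGTCA as well. At the 5′ ends of all coding genes the shares were 14.6% for the CCAAT box, 9.68% for ETS, 17.9% for the GC box, 2.16% for E2F and 6.75% for the CRE core.

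The members' own flanks, 400 to 500 bp from the summit on both sides, had lower shares for each of these: 8.56% for the CCAAT box, 4.53% for ETS, 9.82% for the GC box, 3.53% for E2F and 3.27% for the CRE core. Against head-to-head pairs of the whole genome, around their midpoint, the divergent peaks had ETS less often, at 17.1% and 23.1%, a difference of -5.92 points (-10.1 to -1.31). The GC box was in 15.6% of divergent peaks and 24.5% of the genome's pairs, a difference of -8.90 points (-13.0 to -4.36). For the CCAAT box, in 19.9% and 23.5%, the interval of the difference, -7.94 to 1.23, included 0. The windows are unlike, since those of the peaks are centred on the summit and those of the pairs on the midpoint. The median distance between head-to-head starts was 184 bp in the divergent peaks and 106 bp in the genome's pairs, but these measures are unlike. For a peak the starts nearest its summit were taken. For a pair of the genome the closest starts were taken, at most 1 kb apart, so the medians do not show which lie farther apart. The part these unlike settings play in the differences was not tested. The TAL1 E-box CAGATG was in 7.05% of divergent peaks and 20.9% of the 13120 peaks with no coding start within 1 kb, and the RUNX motif TGTGGT in 7.05% and 19.9%, in the same order. One-direction peaks had the E-box in 6.92% and the RUNX motif in 8.99%. The genome's head-to-head pairs had them in 5.60% and 5.68%. The intervals of the differences between divergent peaks and both of these promoter groups included 0. The CACCC motif CCACACCC, a site of erythroid KLF factors, was in 4 divergent peaks (1.01%) and 3.41% of one-direction peaks, a difference of -2.40 points (-3.48 to -0.694). Its share was 1.62% at the genome's head-to-head pairs, a difference of -0.616 points (-1.68 to 1.04). At the 5′ ends of all coding genes it was 2.50%, a difference of -1.49 points (-2.14 to 0.0738). Both of the latter intervals include 0. At 160 divergent peaks (40.3%) none of 10 promoter motifs was found, against 45.9% of one-direction peaks.

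**Figure D3:**
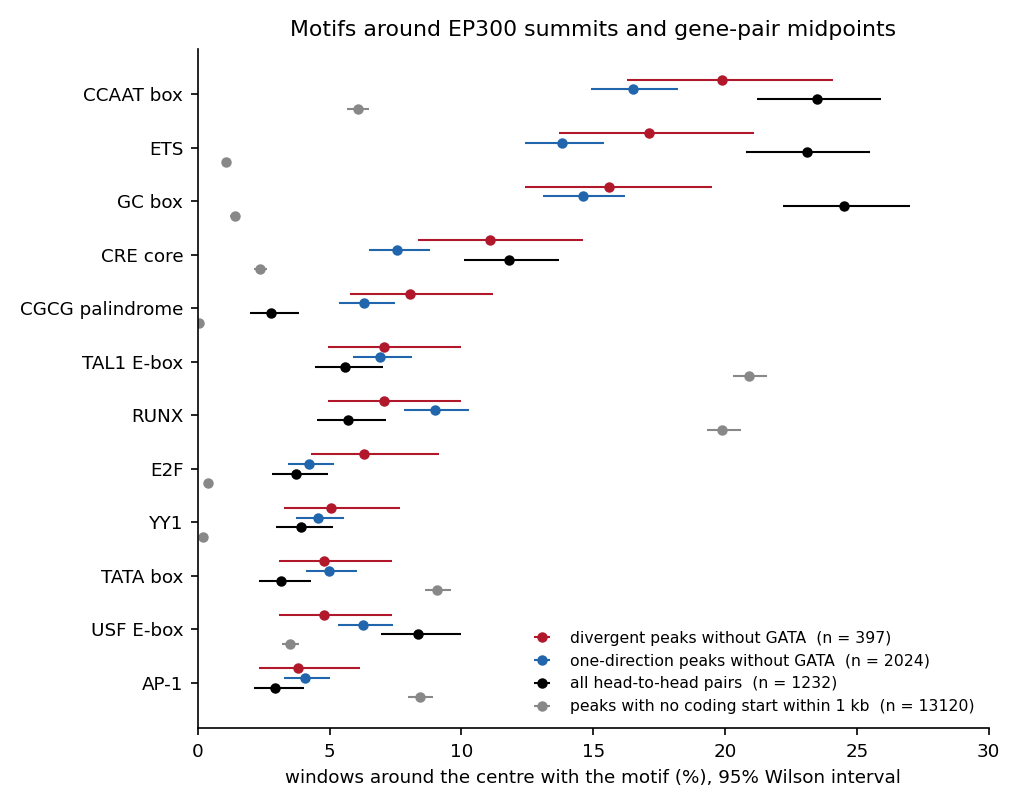
Share of 201-bp windows with each of 12 motifs (horizontal axis, %; bars are 95% Wilson intervals) in the divergent peaks, the one-direction peaks, all head-to-head pairs of the genome and the peaks with no coding start within 1 kb. Windows are centred on the summit for peaks and on the midpoint for pairs. The CGCG palindrome is in 8.06% of divergent peaks and 2.76% of head-to-head pairs. The TAL1 E-box and RUNX motifs stand highest in the peaks away from coding starts, at 20.9% and 19.9%.

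The motif that went with the strongest peaks was the CGCG palindrome CTCGCGAG. This element is bound, when unmethylated, by the protein BANP, which is known as an activator of CpG-island promoters of metabolic genes, and a part of it resembles sites of ZBTB33. It was in 32 divergent peaks (8.06%, 5.77 to 11.2), 6.32% of one-direction peaks, 0.952% of the 5′ ends of all coding genes and 4 of the 13120 peaks away from coding starts (0.0305%). In the flanks of the divergent peaks it was found once in 397 (0.252%). The difference between divergent and one-direction peaks was 1.74 points (-0.827 to 4.98), so the palindrome was shared by both kinds of promoter. It lay at a median of 18.5 bp from the summit, and in 26 of 32 peaks within 50 bp.

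**Figure D4:**
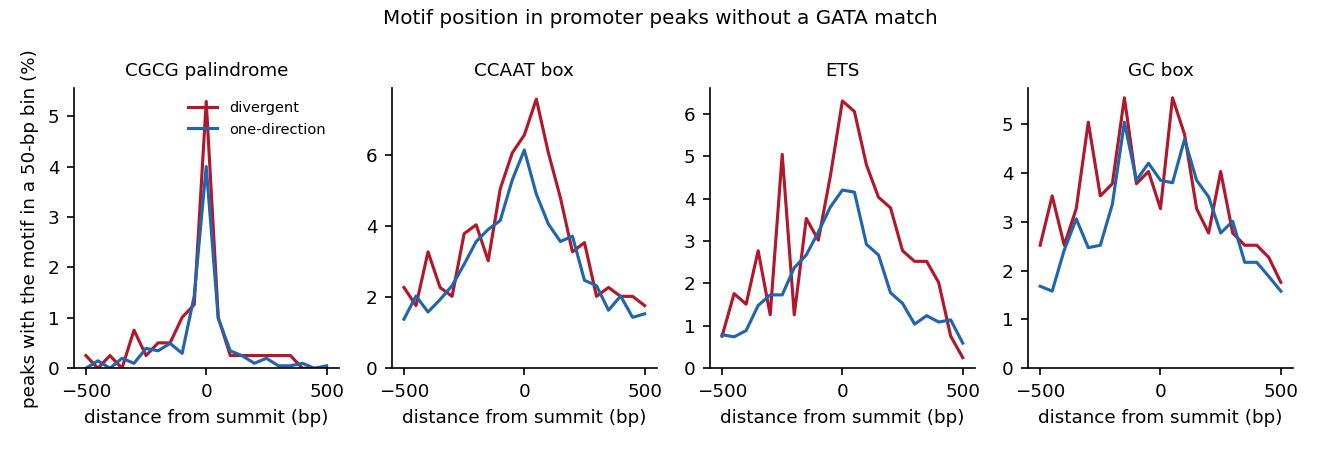
Share of peaks with the CGCG palindrome, the CCAAT box, ETS or the GC box in 50-bp bins (vertical axis, %) by distance from the summit (horizontal axis, bp) in divergent and one-direction peaks without a GATA match. The CGCG palindrome is narrowly centred on the summit, the CCAAT box and ETS form broader humps, and the GC box is broad, with no peak at the summit: its share in divergent peaks is 3.27% in the bin at the summit and 5.54% in the bin 50 bp to the right.

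The 32 peaks with the palindrome had a median optimal signal of 60.6 (45.9 to 97.3), against 25.8 (24.1 to 27.9) for the 365 without it, a ratio of 2.35 (1.64 to 4.04). Several peaks can share a pair, so the strongest peak of each pair was also taken alone. The medians were then 61.0 (50.1 to 97.3) in 31 with the palindrome and 29.6 (27.1 to 33.8) in 294 without it. Among divergent peaks at or above the median signal of the optimal list the ratio was 1.43 (0.912 to 1.98), an interval that includes 1. That cut is made on the signal itself, so its ratio cannot show whether the order holds among stronger peaks. The comparison of peaks with and without the palindrome was added after the motif shares had been seen. Each library gave the same order: the median was 31.7 with and 16.0 without in replicate 1, and 39.9 with and 15.9 without in replicate 2. Both libraries had a summit at 87.5% of the peaks with the palindrome and 60.3% of those without, a difference of 27.2 points (10.9 to 36.3). Of the 12 strongest peaks 6 held it, namely Atp5f1 / Wdr77, Styxl1 / Mdh2, Stxbp4 / Cox11, Cyb5d1 / Naa38, Mad1l1 / Nudt1 and Mthfd2 / Mob1a. Of the 80 strongest 20 held it, and of the 80 weakest 0, where a limit of 3 counts of the total allows up to 3.75%. The GC content beside these values was close, with medians of 64.2% with and 61.2% without.

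Other peaks with the palindrome were at Wdr27 / 1600012H06Rik (122), Lrsam1 / Rpl12 (110.0), Slc25a11 / Rnf167 (97.7), Tas1r1 / Nol9 (97.3), Ankrd49 / Mre11a (95.7), Vmac / Ndufa11 (89.8), Ciapin1 / Coq9 (86.2), Pign / Relch (79.2) and Rps28 / Ndufa7 (74.6), with the optimal signal of each in parentheses. Slc25a11 is the mitochondrial oxoglutarate carrier, Coq9 acts in coenzyme Q synthesis, and Ndufa11 and Ndufa7 are subunits of respiratory complex I. The weakest with the palindrome was Fgf20 / Micu3, at 22.8, whose summit was 356 bp from the nearer start. In one-direction peaks the order was the same, with medians of 64.0 (54.1 to 73.1) in 128 peaks with the palindrome and 25.4 (24.5 to 26.4) in 1896 without, so it was not particular to divergent promoters.

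**Figure D5:**
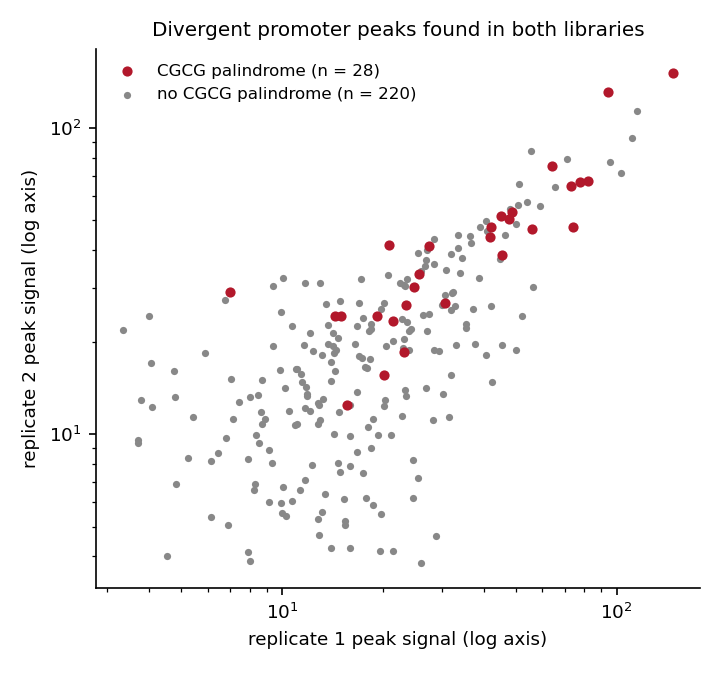
Peak signal in replicate 1 (horizontal axis, log scale) against replicate 2 (vertical axis, log scale) for the 248 divergent peaks with a summit in both libraries; red points are the 28 with a CGCG palindrome and grey points the 220 without. The red points lie toward the upper right, with the highest at 147 in replicate 1 and 151 in replicate 2.

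Counted from the genome, head-to-head pairs with the same motif had an EP300 peak more often. The motif was singled out in these same peaks, so the count is not separate evidence. An optimal summit lay within 1 kb of the midpoint of 380 of 1232 head-to-head coding pairs (30.8%, 28.3 to 33.5) and of the 5′ end of 1878 of 18745 one-direction genes, a difference of 20.8 points (18.3 to 23.5). With a summit near any annotated start counted, the share of one-direction genes was 12.8%. Of the 34 head-to-head pairs with the palindrome within 100 bp of the midpoint, 23 had an optimal summit (67.6%, 50.8 to 80.9), against 29.8% of the 1198 without, a difference of 37.8 points (20.8 to 51.3). Taking as many top peaks from each library alone, the shares were 64.7% with and 36.4% without in replicate 1, and 73.5% with and 32.5% without in replicate 2. The same pairs with a CCAAT box had an optimal summit in 39.4% of 289, against 28.2% of 943 without, a difference of 11.2 points (5.03 to 17.6). For ETS the shares were 32.0% and 30.5%, and for the GC box 29.8% and 31.2%, with differences whose intervals included 0. Pairs with the TATA box TATAAA had a summit in 48.7% of 39, against 30.3% of 1193 without, a difference of 18.5 points (3.37 to 33.8), with 19.9 points (4.18 to 34.4) in replicate 1 and 18.3 points (2.93 to 33.3) in replicate 2.

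These counts take in all head-to-head pairs, with or without GATA. A GATA match at the midpoint went with a share of 34.2% of 120 pairs, against 30.5% of 1112 without, a difference of 3.68 points (-4.67 to 12.9). By the distance between the starts, the share with a peak was 28.0% up to 100 bp, 30.8% at 101 to 200 bp, 42.4% at 201 to 300 bp, 38.2% at 301 to 500 bp and 25.7% at 501 to 1000 bp. When any of the 300000 pooled peaks was counted, 70.1% of head-to-head pairs and 37.7% of one-direction genes had 1.

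The CCAAT box also went with stronger divergent peaks, with a median signal of 39.2 (31.9 to 43.0) in 79 peaks with it and 25.6 (23.9 to 27.8) in 318 without. In replicate 1 the medians were 22.1 with and 15.4 without, and in replicate 2 they were 22.3 with and 15.4 without. The ratio of the medians was 1.53 (1.15 to 1.80). With members taken anew from the top peaks of a single library it was 1.24 (1.08 to 1.45) in replicate 1. In replicate 2 it was 1.22 (0.971 to 1.47). Among optimal peaks at or above the median signal it was 0.948 (0.695 to 1.16), an interval that includes 1. That cut is made on the signal itself, so its ratio cannot show whether the order holds among stronger peaks. With the strongest peak of each pair alone, the medians were 40.3 (36.0 to 48.5) with the box and 29.3 (26.7 to 33.4) without. In one-direction peaks the values were 31.2 (28.7 to 33.2) with and 25.5 (24.5 to 26.4) without. ETS showed no such order in the divergent peaks, with medians of 25.3 (23.0 to 30.8) in 68 peaks with it and 28.1 (25.8 to 31.1) without. With the strongest peak of each pair alone they were 25.7 (23.6 to 35.2) with it and 33.9 (29.4 to 36.2) without. The strongest peaks with each further motif held by over 5% of the class were Wdr27 / 1600012H06Rik for ETS, Gpr137 / Bad (117) for YY1, Tepsin / Ndufaf8 (149.6) for the TAL1 E-box, Hnrnpa2b1 / Cbx3 (176) for E2F and Styxl1 / Mdh2 for the CRE core and RUNX.

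The gene pairs included many housekeeping genes. Of all 21728 protein-coding genes, 2.99% were in a pair with a divergent peak, and 11.1% were in any head-to-head pair. Replication-dependent histone genes, which encode the core histones made in S phase, had 20 of 67 (29.9%), where 40.3% of that list was in head-to-head pairs. RNA polymerase subunits had 6 of 28 (21.4%), mitochondrial ribosomal proteins 12 of 78 (15.4%), splicing factors 9 of 59 (15.3%) and heat shock proteins and chaperonins 11 of 83 (13.3%). DEAD and DEAH box helicases had 6 of 52, cytosolic ribosomal proteins 9 of 83, DNA repair genes 8 of 80 and the respiratory chain with ATP synthase 9 of 100. In each of these lists the share of genes in head-to-head pairs was also above the 11.1% of all genes, from 18.1% of cytosolic ribosomal protein genes to 42.9% of RNA polymerase subunits.

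Lists nearer the background were cell cycle and DNA replication genes with 4 of 67 and aminoacyl-tRNA synthetases with 2 of 37. Also nearer to it were proteasome genes with 2 of 49, translation initiation factors with 2 of 54 and Zfp zinc fingers with 5 of 365 (1.37%). Some of these are likewise above all genes in head-to-head pairs, with 27.0% of the synthetases, 24.5% of the proteasome list, 19.4% of the cell cycle list and 18.5% of the initiation factors, so the lists do not divide by that share. DNA repair had 34 genes in head-to-head pairs and 8 in pairs with a divergent peak, and the respiratory chain 36 and 9, against 2406 and 650 over all genes. Erythroid genes had 2 of 41, Epb41 and Uros. Hepatocyte genes had 0 of 37, where the limit of 3 counts of the total allows up to 8.11% (Wilson upper bound 9.41%). Genes of other cell types had 0 of 28, which by the same limit allows up to 10.7% (Wilson upper bound 12.1%). Of the hepatocyte list 2 genes stood in head-to-head pairs at all.

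The histone pairs carried 13 of the divergent peaks, at 10 pairs. The 8 peaks with a CCAAT box had signals of 41.4 to 69.2, all were found in both libraries and all had the summit between the starts. The 5 without ranged from 11.3 to 34.9, with 2 found in both libraries and 1 with the summit between the starts. The peaks with the box stood at 8 pairs and those without at 5, of 10 pairs in all. Some pairs thus had a peak of each kind, and the contrast is between peaks and not between promoters. Hist1h2bh / Hist1h3f had 26.9 in replicate 1 and 37.1 in replicate 2, and Hist1h2ak / Hist1h2bn had 28.4 and 43.3. The histone genes are near-identical copies, and how reads that map to several of them were placed is not given, so their values are uncertain.

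Ribosomal protein pairs reached optimal signals of 110.0 and 101, above the 69.2 of the strongest histone pair. Lrsam1 / Rpl12 had 48.8 in replicate 1 and 53.4 in replicate 2, and Med22 / Rpl7a, with a Mediator subunit, 50.1 and 48.7. Among mitochondrial ribosomal proteins Zfp661 / Mrps5 had 32.8 and 26.2, and Mrps18b / Ppp1r10 23.6 and 32.2. In the chaperone list Tbccd1 / Dnajb11 followed Dnajb4 / Fubp1, with 38.9 in replicate 1 and 32.3 in replicate 2. Hspd1 / Hspe1, the mitochondrial chaperonin and its partner from a shared promoter, was chosen after its values were seen and had 16.5 and 19.7.

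In the DNA repair list Ankrd49 / Mre11a, with the nuclease of the MRN complex, had 55.8 in replicate 1 and 47.0 in replicate 2, and Xrcc3 / Zfyve21 25.5 and 39.2. Mcm4 / Prkdc, the replicative helicase subunit and the DNA-dependent protein kinase, had 35.5 and 22.9, and Aurka / Cstf1 12.4 and 18.7. Splicing factors were led by Srsf2 / Mfsd11 at 34.0 and 33.6 and Xpc / Lsm3 at 22.5 and 31.3. Both libraries had a summit at each of these 6 pairs.

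RNA polymerase subunits were led by Polr1c / Yipf3, with 23.6 in replicate 1 and 23.3 in replicate 2, and Polr2l / Tspan4, with 23.3 and 14.0. Helicases were led by Ccdc47 / Ddx42 at 37.2 and 25.6 and Gtf3c4 / Ddx31 at 28.5 and 18.8. Cep76 / Psmg2 led the proteasome list with 42.5 and 14.8, while Psmb1 / Tbp, at 16.8 in replicate 1, had no replicate 2 summit. The smaller lists held S100pbp / Yars at 13.5 and 26.6 and Txndc9 / Eif5b at 14.2 and 19.5. Eif2b4 / Snx17 ranked 9034 in replicate 1 and 19752 in replicate 2. Cep76 / Psmg2 had the most uneven values among the pairs named from these lists that were found in both libraries.

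The erythroid genes were Epb41, a membrane skeleton protein of red cells, and Uros, a heme synthesis enzyme. Epb41 / Gm10300, where the starts overlap by 624 bp, had 30.7 in replicate 1 and 28.5 in replicate 2, and Uros / Bccip had 16.8 and 8.78. At the limit of the rule, Sirt6 / Ankrd24 entered with the farther start 981 bp from the summit and a signal of 65.0. Sart3 / Iscu stayed out at 1007 bp with 64.8, as did A730015C16Rik / Kti12 at 1019 bp with 18.1 and Hras / Lrrc56 at 1006 bp with 17.3.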

How the data were processed

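The 5 deposited narrowPeak lists on mm10 were used. The listings that accompany the libraries state that a list of 300000 peaks was made for each library from its filtered alignments and a control file and a pooled list from both, and that the optimal list (17055 peaks) and the conservative list (15728) were derived from them. Which aligner and peak caller were used, and at what threshold, is not given in the sources used here. The signal of a peak was deposited by the authors as 1 value, with a separate scale in each list.

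Coordinates are counted from 1, and no list ran past a chromosome end of GRCm38. TSSs were those of all transcripts of protein-coding genes in GENCODE vM21. Summits were matched between lists within 100 bp. Motifs were exact consensus matches on both strands. Intervals on shares are 95% Wilson, on differences Newcombe and on medians order-statistic; the interval of a ratio of medians divides the opposite bounds. No tests were made, because 1 group of 2 libraries allows none. Python 3.11.15, numpy 2.4.6, pandas 2.3.3, scipy 1.17.1 and matplotlib 3.10.9 were used, and the assignment of peaks and the intervals were tested on simulated data.

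Named pairs were the 12 strongest, the 2 strongest of each of 17 gene lists, the strongest with each motif in over 5% of members, the 3 weakest, the shortest and longest distances between starts, the 3 strongest missing from a library and those within 20 bp of the 1 kb limit. Of the pairs this rule names, 2 are not reported here. Other names were chosen after their values were seen. The members, lists and motifs were chosen with earlier results of these data known.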

Additional observations from a re-analysis of the deposited data

How the results depend on the processing

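Results were recomputed with the conservative list, optimal peaks at or above the median signal, the top peaks of each library alone, GATA windows of 50 and 250 bp, TSS distances of 500 bp and 2 kb, other sets of TSSs, other distances between matched summits, a motif window of 50 bp and leaving out 1071 peaks close to a stronger one. With peaks at or above the median signal the members numbered 125, 88.0% were head to head, 65.6% had the summit between the starts, and the share of head-to-head pairs with a peak exceeded that of one-direction genes by 8.91 points. In that list weak peaks are left out by construction. The ratio of median signals was 1.43 (0.912 to 1.98) for the CGCG palindrome and 0.948 (0.695 to 1.16) for the CCAAT box. Both intervals include 1, and a cut on the signal itself cannot show whether the order holds among stronger peaks. With only the 5′ end of each gene as its TSS, 63.9% were head to head and 38.5% had the summit between the starts. Without replicate 1 or replicate 2 the head-to-head share was 79.4% to 84.4% and the excess of pairs with a peak 22.3 to 25.5 points. The median signal relative to one-direction peaks stayed between 1.01 and 1.10, and of 108 recomputed motif differences 104 stayed within the interval reported and 4 moved beyond it. The interval of the CRE core difference included 0 under 6 of 12 settings, that of the CCAAT box excluded 0 under 4 and those of ETS and E2F under 3 each. The ratios by motif were added after seeing the data, as was the wider core TCTCGCG, found in 15.1% of members and 11.4% of one-direction peaks, with median signals in members of 57.6 with and 25.2 without. Depth is unknown, so a missing library summit does not show absence of binding. No paired analysis was possible because the libraries form 1 group.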
